A study of Solanum lycopersicum with 30 samples.

Results

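The light-harvesting antenna and photosystem subunit genes of tomato (Solanum lycopersicum) were followed through drought and recovery in the veins of the leaf and in the tissue between them. They were chosen as a list of 48 gene identifiers, of which 35 have a row in the count table of 35596 rows used here and 13 have none. The 35 rows are 19 antenna genes, whose products are chlorophyll a-b binding proteins, and 16 photosystem subunit genes. The subunit row Solyc06g084050 held 0 counts in all 30 libraries, and the other 34 rows (19 antenna, 15 subunit) passed the filter on low counts and were tested. The identifiers without a row include all 8 listed copies of a tandem antenna cluster on chromosome 2 (Solyc02g070940 to Solyc02g071030), so the antenna sums below are sums over the copies that have a row.

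Antenna proteins bind most of the chlorophyll of a leaf and pass the light energy they absorb to the reaction centres of photosystem II and photosystem I. The subunits of the photosystems hold those reaction centres together, stabilise the water-splitting site and pass electrons on. Transcripts of both classes come from nuclear genes, are abundant in green mesophyll cells and are known to react to light, the circadian clock and stress.

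Messenger RNA was sequenced from 10 groups of 3 libraries. Per the labels' protocols 3 plants per treatment were used at T1 and at T2, with both tissues taken, and a cultivar is not given in the sources used here. T1 drought plants had gone 6 days without water at 29 days after sowing, and T1 watered plants of the same age received 150 mL of water every other day. T2 recovered plants were sampled 3 days after watering resumed, beside T2 watered plants that were never dried, and T0 watered plants were sampled at 25 days. Pots held 300 g of soil, and days had 16 h of light. The fourth true leaf was dissected into vein-enriched and intervein tissue and sequenced in bulk, so vein libraries can still hold RNA of other leaf cells.

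Total counts were 2718799 to 13641845 a library, and the members took 0.379% to 10.03% of them, with 95% Wilson intervals of at most 0.0234 percentage points to either side (counting error only). A tissue score, the mean log2 level of genes higher in vein than in intervein in the T0 libraries minus that of genes lower in vein, with all members left out, was 0.697 to 2.06 in 13 vein libraries and -4.10 to -2.44 in 14 intervein libraries. The library labelled vein T2 recovered 2 scored -3.14, inside the intervein range, and the one labelled intervein T2 recovered 1 scored 0.489, far above it, and vein T1 drought 2 scored -0.538. For most comparisons that rest on these libraries, the number of members called by the main test and the median are also given without them. Other counts include them. Intervein T1 drought 1 had the fewest genes detected (13740) and the largest share of counts in non-coding RNA rows (12.2%).

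The summed antenna level was on average highest in watered intervein tissue at T0 and T1 and lowest in vein tissue of T1 drought and T2 watered plants. Levels are in CPM, counts scaled to a common library size. In intervein tissue the 19 antenna genes together reached 1213, 6927 and 3816 CPM in T1 drought, against 8312, 20690.2 and 85297 CPM in T1 watered libraries. At T2 they reached 6856, 28830.4 and 15181 CPM in recovered and 2325, 6105 and 5473 CPM in watered intervein libraries. All 3 drought sums lay below all 3 watered sums at T1, and all 3 recovered sums lay above all 3 watered sums at T2. The T0 intervein libraries held 80321, 72566 and 5743 CPM, so that the third lay far below the other 2, and the T1 watered intervein libraries were spread almost as widely. In bulk tissue, fewer cells of a type and less RNA per cell cannot be told apart.

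In vein tissue the antenna sums were also lower in T1 drought and higher in T2 recovered plants than in their watered controls. Antenna sums were 1291, 4053 and 2489 CPM in T1 drought vein libraries, against 4993, 6006 and 10734 CPM in T1 watered ones. At T2 they were 6068, 19391 and 5119.7 CPM in recovered, against 2699.9, 2405 and 2747 CPM in watered vein libraries, and the highest recovered value came from the library that scored as intervein. T0 vein libraries held 5443, 6674 and 11023 CPM. Neither vein contrast overlapped in these sums.

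The summed level of the 16 subunit genes overlapped between groups in most contrasts. It was 6123, 10576 and 5488 CPM in T1 drought intervein libraries, against 10566, 25298 and 63385 CPM in T1 watered ones, and the highest drought library lay just above the lowest watered one. Recovered intervein libraries at T2 held 9121, 35375 and 24026 CPM, against 8615, 11549 and 9084 CPM in watered ones, and these overlapped. In vein the sums were 2134, 4289 and 2608 CPM in T1 drought, against 4013, 4114 and 8553 CPM in T1 watered, and 6374, 28888 and 6444 CPM in T2 recovered, against 3694, 2843 and 3188 CPM in T2 watered libraries. The vein groups overlapped at T1 and not at T2. At T0 the vein sums averaged 6738 ± 2285 CPM and the intervein sums 43487 ± 31662 CPM (SD, n = 3 each).

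**Figure D1:**
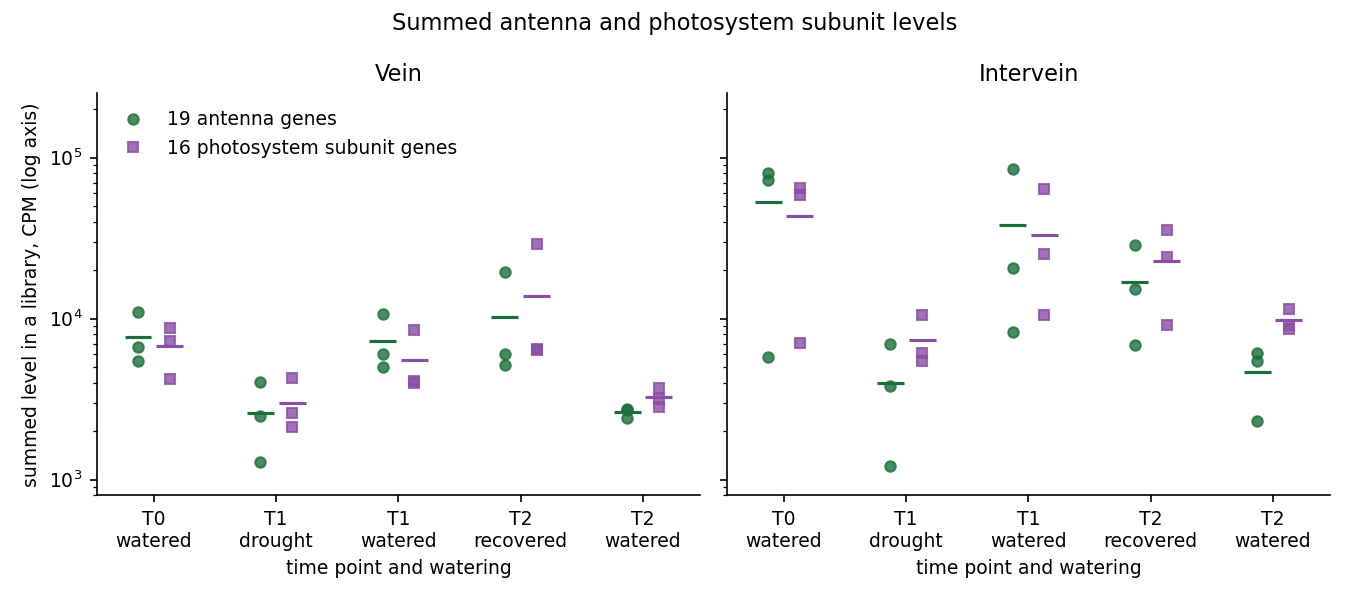
Summed level of the 19 antenna genes (circles) and the 16 subunit genes (squares) in each of the 30 libraries, in CPM on a log axis, by group; points are libraries and short lines group means. Intervein T1 watered libraries span 8312 to 85297 CPM for the antenna sum, while T1 drought libraries stay at or below 6927 CPM.

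Drought at T1 was compared with watering in intervein tissue first. There, 12 of the 34 tested members fell (edgeR's quasi-likelihood test, Benjamini-Hochberg adjusted p under 0.05) and none rose, against 2.68% of all tested rows called lower. The share of counts in non-coding RNA rows, a sign of RNA quality or library make-up, moved with this contrast: it was 12.2%, 7.60% and 2.63% in T1 drought, against 0.917%, 0.817% and 1.56% in T1 watered intervein libraries, without overlap, and its part in the fall was not tested. Antenna genes made up 11 of the 12, of 19 tested, and Solyc08g013670 was the 1 subunit gene, of 15 tested. All 34 fitted log2 fold changes were below 0, with a median of -3.65 for antenna and -2.19 for subunit genes, beside -0.08 over all 19431 tested rows. At an unadjusted p under 0.05, 30 of the 34 were lower, beside 2379 of the 19431 rows. The ranges of 18 (13 antenna, 5 subunit) lay wholly below those of the watered libraries, beside 12.3% of all rows. Antenna genes other than those named in the next paragraphs that fell were Solyc12g011280, Solyc10g006230, Solyc05g056050, Solyc07g047850 and Solyc12g006140, with log2 fold changes of -4.55, -3.65, -4.15, -3.74 and -4.36.

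Solyc06g069730, an antenna gene, had 0, 3 and 0 counts in the 3 T1 drought intervein libraries, against 22, 330 and 5190 counts in the T1 watered ones. Its scaled level was 2048-fold lower over the summed libraries (95% interval 700.5 to 9935, counting error only), and it fell in the test (adjusted p = 0.0209). Almost all of its watered counts came from T1 watered 3. Without that library it was 166-fold lower (95% interval 56.3 to 808) and no longer passed, nor did it without T1 drought 2 or T1 drought 3. Leaving out other single libraries put the ratio between 1135 (without T1 drought 3) and 3455 (without T1 watered 2), and without T1 drought 2, which held all 3 drought counts, it was at least 1351-fold lower against a floor of 3 counts over the drought group.

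Solyc07g063600 reached 10.6, 62.8 and 44.3 CPM in drought, against 219, 940.1 and 5401 CPM in watered intervein libraries, with no overlap. Its log2 fold change was -5.80 ± 1.36 SE, adjusted p = 0.0209, and it did not pass without T1 drought 1, T1 drought 3 or T1 watered 3, the last of which left -3.91. Solyc03g005770 had 30.5, 159 and 134 CPM in drought, against 1035, 2111 and 10440.4 CPM in watered libraries. It was the member with the smallest adjusted p (log2 fold change -5.39 ± 1.06 SE, adjusted p = 0.00979), and it still passed, at a log2 fold change of -3.89, without T1 watered 3. Its neighbour Solyc03g005760 also fell, to 59.2, 535 and 464 CPM in drought, against 1466, 2733 and 8932 CPM in watered libraries (log2 fold change -3.63 ± 0.91 SE, adjusted p = 0.0268).

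CP24 is a minor antenna protein that links the large trimeric antenna to photosystem II, and the table holds both of its copies. The copy CP24 10B (Solyc01g105050) fell, with 36.3, 200.2 and 97.1 CPM in drought, against 244, 683 and 4663 CPM in watered intervein libraries (log2 fold change -4.07 ± 1.00 SE, adjusted p = 0.0252). CP24 10A (Solyc01g105030) had 22.1, 93.4 and 38.8 CPM in drought, against 48.3, 172 and 369 CPM in watered libraries, and did not pass (log2 fold change -1.93 ± 0.88 SE, adjusted p = 0.198). Drought and watered libraries overlapped for 10A and stood apart for 10B. Solyc05g056070 fell as well, with 53.7, 439 and 225 CPM in drought, against 632, 1372 and 4323 CPM in watered libraries (log2 fold change -3.14 ± 0.89 SE, adjusted p = 0.0429).

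Not every abundant antenna gene passed. Solyc09g014520, the antenna gene with the highest mean CPM over the libraries (not corrected for length), had 169.9, 1336 and 618 CPM in drought, against 756, 2221 and 7520.4 CPM in watered intervein libraries, and the second drought library exceeded the first watered one (log2 fold change -2.30 ± 0.90 SE, adjusted p = 0.129). Solyc12g011450, annotated as the type III protein of the trimeric antenna of photosystem II (CAB13), had 443, 766 and 516 CPM in drought, against 795, 1899.6 and 6259 CPM in watered libraries, and these did not overlap (log2 fold change -2.38 ± 0.80 SE, adjusted p = 0.0795). Solyc03g005775 had 0 counts in all 3 drought libraries, against 0, 23 and 241 counts in watered ones. Over the summed libraries this was at least 97.6-fold lower, against a floor of 3 counts over the drought group, and at least 10.8-fold lower without T1 watered 3, and the gene did not pass (adjusted p = 0.146). The median over the 34 members was -2.78. Setting this gene at that bound could not move the median, since the bound lay on the same side of it as the fitted value.

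Of the subunit genes, Solyc08g013670 fell to 182, 429 and 339 CPM in drought, against 595, 2379 and 4783 CPM in watered intervein libraries (log2 fold change -3.03 ± 0.89 SE, adjusted p = 0.0478). PsbO (Solyc02g065400) and PsbQ (Solyc02g079950) sit on the lumenal side of photosystem II and stabilise water splitting. PsbO had 1260.4, 1089 and 558 CPM in drought, against 1952, 3782 and 8999 CPM in watered libraries (log2 fold change -2.34 ± 0.73 SE, adjusted p = 0.0611). PsbQ had 727, 1374 and 646 CPM in drought, against 1589, 3908 and 9745 CPM in watered libraries (log2 fold change -2.47 ± 0.81 SE, adjusted p = 0.0711). Neither passed, although no drought library reached the lowest watered one. Solyc07g044860, the subunit gene with the highest mean CPM, did not overlap either and did not pass, with 1087, 1634 and 852 CPM in drought, against 2035, 4119 and 9483 CPM in watered libraries (log2 fold change -2.13 ± 0.67 SE, adjusted p = 0.0633).

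PsaD (Solyc06g054260), which docks ferredoxin on the stromal side of photosystem I, had 573, 833 and 435 CPM in drought, against 808, 1559 and 3977 CPM in watered intervein libraries (log2 fold change -1.79 ± 0.64 SE, adjusted p = 0.0999). PsbS (Solyc06g060340), needed for the rapid release of excess light energy as heat, had 10.2, 564 and 254 CPM in drought, against 189, 664 and 1925 CPM in watered libraries (log2 fold change -1.75 ± 1.11 SE, adjusted p = 0.371). Both overlapped. Among the 3 drought libraries PsbS was lowest in drought 1, the library with the fewest genes detected. Solyc02g069450 had 48.4, 329.9 and 112 CPM in drought, against 156, 504 and 1426 CPM in watered libraries, and overlapped as well (log2 fold change -2.09 ± 0.94 SE, adjusted p = 0.19).

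The number of members called in intervein tissue at T1 rested on single libraries. It was 19 without T1 watered 1 and 1 without either T1 watered 3 or T1 drought 3, with Solyc03g005770 as that gene both times. It was 2 without T1 drought 1, 6 without T1 watered 2 and 8 without T1 drought 2. DESeq2 called 26 and edgeR on the 6 compared libraries alone called 0, while the median stayed between -3.38 (without T1 drought 2) and -1.57 (without T1 watered 3) under every alternative run. For these and the later counts from alternative runs, those of DESeq2 included, the share of all rows called is not given. They therefore have no background beside them.

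In vein tissue, edgeR called 0 of the 34 members at T1, beside 0.695% of all rows called in either direction. Of the members, 4 antenna genes were lower with an unadjusted p under 0.05, beside 1237 of the 19431 rows, and 1 passed in DESeq2 (Solyc03g005770). Fitted log2 fold changes were below 0 for 33 of 34, with a median of -0.93 beside -0.00 over all rows, and 11 members (8 antenna, 3 subunit) had drought values wholly below the watered ones, beside 12% of all rows. Solyc03g005770 had 58.1, 292 and 131 CPM in drought, against 737, 906 and 1359.8 CPM in watered vein libraries (log2 fold change -2.64 ± 0.93 SE, adjusted p = 0.194). Solyc07g063600 had 3.51, 144 and 32.8 CPM in drought, against 202, 207 and 259 CPM in watered libraries (log2 fold change -1.89 ± 1.14 SE, adjusted p = 0.56). In both genes the highest drought value came from drought 2, the library with the intermediate tissue score, and without that library the median of the 34 members was -1.38, against -0.54 without T1 watered 3, with 0 called either way. Tissue scores of the drought vein libraries, 1.24, -0.54 and 1.08, all lay below those of the watered ones, 1.97, 1.64 and 1.38, and the part of this shift in the lower values was not tested.

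PsbS was the 1 member with a fitted value above 0 in vein at T1, with 25.6, 115 and 98.1 CPM in drought, against 27, 42.2 and 101 CPM in watered libraries (log2 fold change 0.49 ± 1.09 SE, adjusted p = 0.972). The 2 groups overlapped. Solyc09g014520 had 289, 519.5 and 357 CPM in drought, against 363, 501 and 905 CPM in watered vein libraries, and Solyc07g044860 had 398, 700.2 and 457 CPM in drought, against 817, 770.2 and 1387 CPM in watered ones. The drought ranges of the antenna gene overlapped those of watered plants and those of the subunit gene did not.

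Whether the T1 response differed between vein and intervein was tested directly. edgeR called 0 of the 34 members and 0% of all rows, and DESeq2 called 1 member (Solyc06g069730). At an unadjusted p of 0.05, 7 antenna genes passed, all above 0, beside 560 of the 19431 rows above 0. All 34 differences were above 0, with a median of 1.81 beside 0.10 over all rows, so that the fitted values were less negative in vein. The median was 0.59 without intervein T1 watered 3, 2.68 without intervein T1 drought 2 and 1.38 without vein T1 drought 2, with 0 called each time. The calls in 1 tissue and not in the other at T1 are therefore no shown difference between the tissues.

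**Figure D2:**
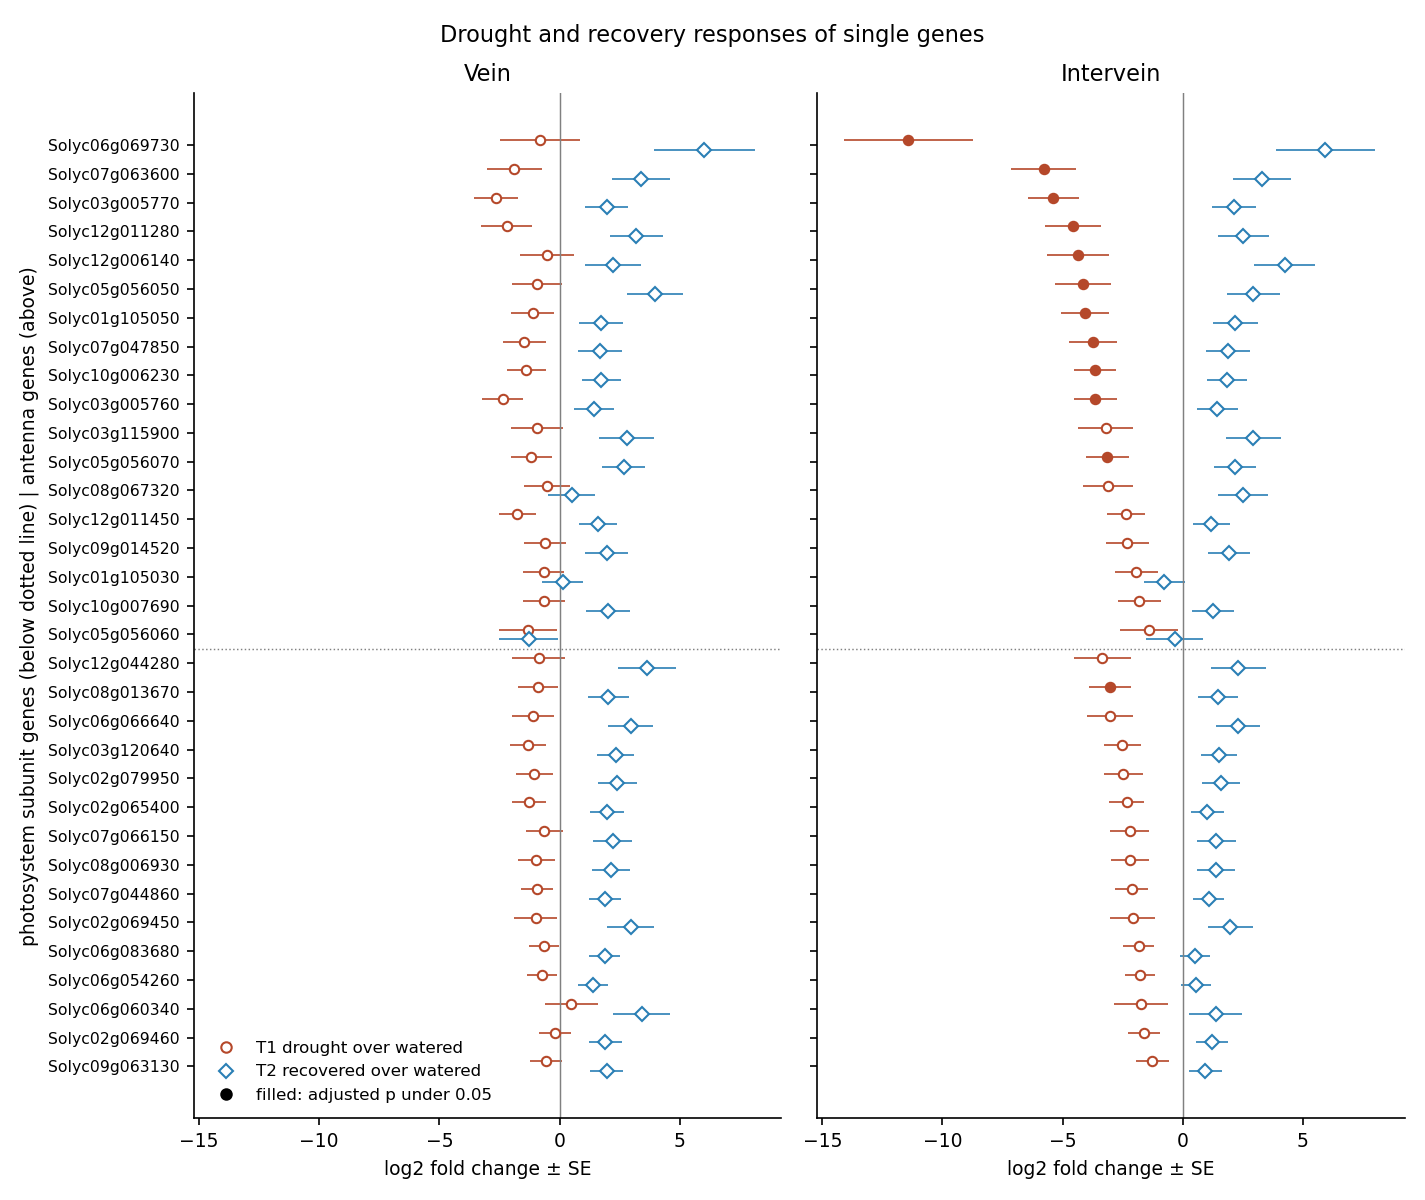
Fitted log2 fold change ± SE of 33 members in vein and intervein tissue, for T1 drought over T1 watered (circles) and T2 recovered over T2 watered (diamonds); filled symbols have an adjusted p under 0.05 (edgeR) and Solyc03g005775 is left out because of its groups at 0 counts. The plotted intervein T1 value of Solyc06g069730 is a fitted one that rests on 3 drought counts. Circles lie left of 0 for all genes in intervein, where 12 are filled, and diamonds lie right of 0 for 32 of the 33 genes in vein and 31 of the 33 in intervein, with none filled.

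At T2, recovered plants were compared with plants watered throughout. In vein, edgeR called 0 of the 34 members, beside 1.38% of all rows called higher, and DESeq2 called 18. At an unadjusted p of 0.05, 25 passed, all of them higher in recovered plants, beside 2255 of the 19431 rows higher. Recovered values lay wholly above watered ones for 30 of the 34 members (15 antenna and all 15 subunit genes tested), beside 12.5% of all rows. The median log2 fold change was 2.02 (1.96 for antenna and 2.15 for subunit genes), beside -0.00 over all rows. Without recovered 2, the library that scored as intervein, the median was 1.07 and edgeR again called 0. Genes detected numbered 18351, 17186 and 17038 in recovered, against 19081, 19424 and 18627 in watered vein libraries, without overlap, and the part of this in the contrast was not tested.

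Among the antenna genes in vein, Solyc06g069730 had 17.1, 87.1 and 16 CPM in recovered, against 0.842, 0.261 and 0.773 CPM in watered libraries at T2 (log2 fold change 6.02 ± 2.11 SE, adjusted p = 0.127). Solyc07g063600 had 241, 1038 and 182 CPM in recovered, against 54, 45.9 and 40.5 CPM in watered libraries (log2 fold change 3.38 ± 1.21 SE, adjusted p = 0.137). Solyc09g014520 had 605, 2753 and 574 CPM in recovered, against 363, 285 and 362 CPM in watered libraries (log2 fold change 1.96 ± 0.89 SE, adjusted p = 0.242). In each of the 3 genes recovered 2 was the highest vein library and the other 2 recovered libraries still lay above all watered ones.

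Subunit genes in vein at T2 showed the same picture. PsbS had 125, 708 and 145 CPM in recovered, against 36.8, 23.2 and 31.2 CPM in watered libraries (log2 fold change 3.42 ± 1.19 SE, adjusted p = 0.127). PsbO had 752, 3857 and 846 CPM in recovered, against 541, 444 and 396 CPM in watered libraries, and PsbQ had 815, 4719 and 919 CPM in recovered, against 510.3, 344 and 369 CPM in watered ones. PsaD had 475, 1583 and 488 CPM in recovered, against 353, 309 and 297 CPM in watered libraries. Solyc07g044860 had 1128, 4603 and 1282 CPM in recovered, against 736, 541 and 624 CPM in watered libraries. None of these ranges overlapped and none of the genes passed, with adjusted p of 0.144 for PsbO, 0.113 for PsbQ, 0.237 for PsaD and 0.133 for Solyc07g044860 (edgeR).

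In intervein tissue at T2, edgeR called 0 of the 34 members, beside 0.566% of all rows called higher. At an unadjusted p under 0.05, 16 (14 antenna, 2 subunit) were higher, beside 1986 of the 19431 rows. In DESeq2, 5 passed (Solyc03g115900, Solyc05g056050, Solyc06g069730, Solyc07g063600 and Solyc12g006140). Recovered values lay wholly above watered ones for 17 members (12 antenna, 5 subunit), beside 11% of all rows. The median log2 fold change was 1.71 (2.18 for antenna and 1.38 for subunit genes), beside 0.07 over all rows, and 2.14, with 0 called, without the 2 T2 libraries whose scores went against their labels.

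Solyc06g069730 had 30.2, 205 and 37.6 CPM in recovered, against 3.47, 1.52 and 0 CPM in watered intervein libraries (log2 fold change 5.93 ± 2.06 SE, adjusted p = 0.151). Solyc12g006140 had 109, 841 and 235 CPM in recovered, against 18.3, 31.8 and 12.6 CPM in watered libraries (log2 fold change 4.23 ± 1.28 SE, adjusted p = 0.103). Solyc09g014520 had 902, 3548 and 1965 CPM in recovered, against 563, 738 and 398 CPM in watered libraries (log2 fold change 1.92 ± 0.88 SE, adjusted p = 0.265). The groups did not overlap in any of the 3, even though the lowest recovered value was each time that of recovered 1, the library that scored near vein.

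For Solyc03g005775 the counts were 26, 103 and 0 in recovered and 0 in all 3 watered intervein libraries, at least 43.3-fold higher against a floor of 3 counts over the watered group, and at least 12.4-fold higher without recovered 2, which held most of them. CP24 10A and Solyc05g056060 were the 2 members with a fitted value below 0 (edgeR adjusted p = 0.688 and 0.925), the first with 38.4, 87.9 and 103 CPM in recovered, against 31.9, 127 and 232 CPM in watered libraries. PsbS had 229, 609 and 518 CPM in recovered, against 258, 243 and 22.9 CPM in watered intervein libraries (log2 fold change 1.37 ± 1.10 SE, adjusted p = 0.535), and PsbO had 1127, 4663 and 3222 CPM, against 1148, 1750.4 and 1528 CPM. Both overlapped. The difference between tissues in the T2 response passed for 0 members by edgeR, by DESeq2 and at an unadjusted p under 0.05. Of the 19431 rows, edgeR called 0%, and 1045 had an unadjusted p under 0.05. Its median over the members was 0.68, and -0.94 without the 2 libraries whose scores went against their labels, so that its direction rested on them.

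**Figure D3:**
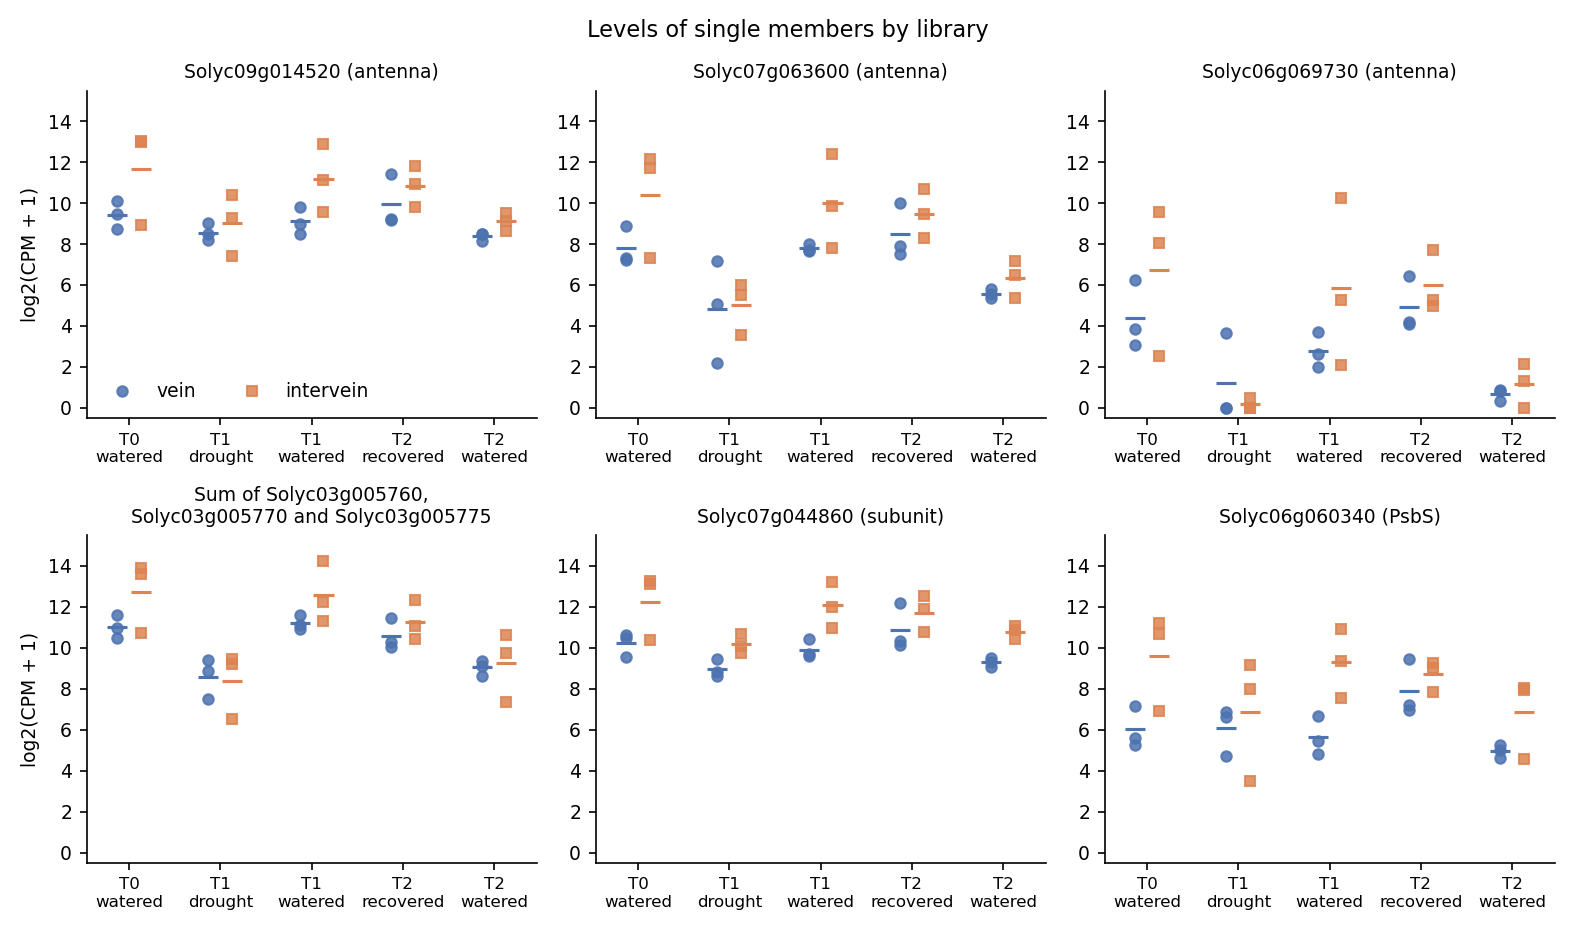
Level of 5 members and of the summed cluster of Solyc03g005760, Solyc03g005770 and Solyc03g005775 in each library, as log2(CPM + 1), by group, for vein (circles) and intervein (squares); short lines are means of the log values. Solyc06g069730 is at 0 in 2 T1 drought libraries of each tissue, and the PsbS values of drought intervein libraries span 10.2 to 564 CPM.

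Recovered plants were also set against drought plants, which differ in age as well as in watering and share the recovered and drought libraries with the contrasts above. In intervein tissue, 2 of the 34 members rose at T2 (edgeR), beside 1.84% of all rows called higher. Solyc03g005770 had 719, 2623 and 989 CPM in T2 recovered, against 30.5, 159 and 134 CPM in T1 drought libraries (log2 fold change 3.74 ± 0.98 SE, adjusted p = 0.0385). Solyc06g069730 had 345, 1512 and 236 counts in T2 recovered libraries, against 0, 3 and 0 counts in T1 drought ones, 613-fold higher over the summed libraries (95% interval 209 to 2974, counting error only; adjusted p = 0.0476). Leaving out 1 library put this ratio between 241 (without T2 recovered 2) and 939.7 (without T2 recovered 1), with 339.7 without T1 drought 3, and without T1 drought 2 it was at least 404-fold, against a floor of 3 counts over the drought group. No recovered library reached down to the drought ones in either gene, yet both calls were lost on leaving out any 1 of the 6 libraries. All 34 fitted values were above 0, with a median of 2.02 beside 0.06 over all rows. At an unadjusted p of 0.05, 22 passed, beside 2372 of the 19431 rows higher, and 17 did not overlap, beside 12.2% of all rows. DESeq2 called 13. The median was 1.38 without T2 recovered 2 and 2.77 without T1 drought 2. Without the 2 T2 libraries whose scores went against their labels it was 2.44, with Solyc03g005770 as the 1 member called.

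In vein, edgeR called 0 members between T2 recovered and T1 drought, beside 1.51% of all rows called higher, and DESeq2 called 15. At an unadjusted p of 0.05, 22 were higher, beside 2035 of the 19431 rows. The median log2 fold change was 2.08 beside 0.00 over all rows, and 1.15, with 0 called, without recovered 2. Non-coding RNA rows took 1.37% to 1.97% of the counts in recovered, against 3.16% to 4.87% in drought vein libraries, and the part of this in the contrast was not tested. Recovered values lay wholly above drought values for 25 members (11 antenna, 14 subunit), beside 9.68% of all rows. Of the subunit genes tested, 1 overlapped, Solyc02g069460, which had 144, 603 and 130.4 CPM in recovered, against 61.2, 131 and 93.7 CPM in drought libraries.

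Fitted values were below 0 for T1 drought and above 0 for T2 recovered plants, each against watered plants, in 32 of the 34 members in either tissue, and the difference of both responses was tested in a comparison added after the counts had been seen. In intervein tissue, the recovered response at T2 minus the drought response at T1 passed for 26 of 34 members (16 of 19 antenna, 10 of 15 subunit), all higher, beside 6.01% of all rows called higher. The median was 4.35 (5.64 for antenna and 3.57 for subunit genes), beside 0.23 over all rows. Solyc03g005770 had the smallest adjusted p, at a log2 difference of 7.51 ± 1.38 SE, adjusted p = 0.00335, followed by Solyc06g069730 (adjusted p = 0.00414) and Solyc07g063600 (log2 difference 9.08 ± 1.81 SE, adjusted p = 0.00492). Solyc03g005775, at 0 counts in 2 of the 4 groups, passed at adjusted p = 0.042, and its fitted difference has no interpretable size. PsbO (log2 difference 3.37 ± 1.01 SE, adjusted p = 0.0361) and PsbQ (log2 difference 4.05 ± 1.12 SE, adjusted p = 0.0251) passed, while PsaD (log2 difference 2.35 ± 0.89 SE, adjusted p = 0.0864), PsbS (log2 difference 3.12 ± 1.57 SE, adjusted p = 0.197) and CP24 10A (log2 difference 1.16 ± 1.21 SE, adjusted p = 0.587) did not.

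The number that passed was 11 without intervein T1 watered 3, 12 without T2 watered 3, 14 without T2 recovered 2, 15 without T1 drought 3 and 17 without T1 drought 1, and it was 9 with edgeR on the compared groups alone. Without T2 recovered 1, which scored near vein, it was 25, and 28 with a median of 4.94 without both T2 libraries whose scores went against their labels. Leaving out other single libraries moved the median to 3.53 (without T1 watered 3), 4.97 (without T1 watered 1) and 5.28 (without T1 drought 2). In vein, edgeR called 0 members for the same difference, beside 1.5% of all rows, and DESeq2 called 16. At an unadjusted p of 0.05, 28 were above 0, beside 2042 of the 19431 rows. The vein median was 3.13 beside 0.04 over all rows, and 2.15, with 0 called, without vein T2 recovered 2, the library that scored as intervein. Without vein T1 drought 2 it was 3.52, with 2 called (Solyc07g063600 and Solyc12g011280). Each response is relative to the watered libraries of its own time point.

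Watered plants were also compared between T2 and T0. In intervein tissue, edgeR called 0 of the 34 members between T2 watered and T0 watered, beside 0.0412% of all rows. At an unadjusted p under 0.05, 32 were lower, beside 1496 of the 19431 tested rows. DESeq2 called 25 members, and the share of all rows it called is not given. All 34 fitted log2 fold changes were below 0, with a median of -3.07 beside -0.04 over all rows, and -3.70 without T0 watered 3. Genes detected numbered 15167 to 17547 in T2 watered, against 17950 to 19244 in T0 watered intervein libraries, and the part of this was not tested. Solyc09g014520 had 563, 738 and 398 CPM in T2 watered, against 8352, 8216 and 486 CPM in T0 watered intervein libraries, and Solyc07g044860 had 1889.7, 2110.4 and 1397 CPM, against 9872, 8786 and 1341 CPM. The third T0 library was low in both, and the groups overlapped. T2 values lay wholly below T0 values for 9 members, all of them antenna genes, beside 9.15% of all rows.

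In vein, edgeR and DESeq2 called 0 members between T2 watered and T0 watered, beside 0% of all rows by edgeR. At an unadjusted p under 0.05, 11 were lower, beside 1104 of the 19431 rows. T2 values lay wholly below T0 values for 28 members (15 antenna, 13 subunit), beside 12.3% of all rows, with a median log2 fold change of -1.26 beside -0.04. Solyc09g014520 had 363, 285 and 362 CPM in T2 watered, against 424, 710.3 and 1081 CPM in T0 watered vein libraries. Tissue scores were 0.697 to 1.34 in T2 watered, against 1.88 to 2.06 in T0 watered vein libraries, whose own levels helped choose the score's genes, and non-coding RNA rows took 0.761% to 1.46% of the counts at T2, against 2.71% to 10.7% at T0. Neither overlapped, and the part of either in the contrast was not tested. Age and day of sampling cannot be told apart in this contrast.

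Across the watered groups, 31 of the 34 members were lower in vein than in intervein (edgeR), beside 13.8% of all rows called lower. They were 16 of 19 antenna genes and all 15 subunit genes tested, with a median log2 fold change of -2.15 beside 0.09 over all rows. The antenna genes that did not pass were Solyc03g005775, Solyc08g067320 and Solyc05g056060, with adjusted p of 0.851, 0.241 and 0.445. The count was 25 without intervein T1 watered 3 and 22 when same-numbered vein and intervein libraries of a time point were taken as 1 plant, which the labels do not state. No member separated all 9 vein from all 9 intervein libraries, beside 2.99% of all rows.

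PsbS showed the largest tissue difference of the members called (log2 fold change -3.58 ± 0.69 SE, adjusted p = 0.000541). At T0 it had 37, 48.1 and 143 CPM in vein, against 2399, 1647 and 119.9 CPM in intervein libraries. At T1 it had 27, 42.2 and 101 CPM in watered vein, against 189, 664 and 1925 CPM in watered intervein libraries, and at T2 36.8, 23.2 and 31.2 CPM in watered vein, against 258, 243 and 22.9 CPM in watered intervein libraries. The vein values lay below the intervein values at T1, and single libraries overlapped at T0 and T2.

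Solyc06g069730 followed (log2 fold change -3.55 ± 1.09 SE, adjusted p = 0.0176). It had 7.49, 13.2 and 74.2 CPM in vein, against 761, 266 and 4.68 CPM in intervein libraries at T0. In watered plants at T1 it had 2.91, 12.2 and 5.23 CPM in vein, against 3.24, 37.6 and 1212 CPM in intervein libraries, and at T2 0.842, 0.261 and 0.773 CPM in vein, against 3.47, 1.52 and 0 CPM in intervein libraries. At each time point at least 1 intervein library of this gene lay no higher than the highest vein library.

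Tandem copies can share reads, and how a read that fits more than 1 copy was assigned is not stated in the sources at hand. Therefore 4 clusters of neighbouring members were also tested as sums. In intervein tissue at T1, 3 of the 4 sums fell with drought (edgeR), beside 2.68% of all single rows called lower. The sum of Solyc03g005760, Solyc03g005770 and Solyc03g005775 had 89.7, 694 and 598 CPM in drought, against 2501, 4846 and 19428 CPM in watered libraries (log2 fold change -4.38 ± 1.00 SE, adjusted p = 0.0189). The sum of Solyc05g056050, Solyc05g056060 and Solyc05g056070 had 60.7, 572 and 281 CPM, against 817, 2041 and 6898 CPM (log2 fold change -3.51 ± 0.99 SE, adjusted p = 0.0399). Neither sum overlapped between drought and watered libraries.

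Both CP24 copies summed had 58.3, 294 and 136 CPM in drought, against 292, 855 and 5032 CPM in watered intervein libraries (log2 fold change -3.78 ± 0.98 SE, adjusted p = 0.0299), with the highest drought library just above the lowest watered one. The subunit pair Solyc02g069450 and Solyc02g069460 had 150.4, 669 and 379 CPM in drought, against 427, 1147 and 2689 CPM in watered libraries and did not pass (log2 fold change -1.93 ± 0.81 SE, adjusted p = 0.16). None of the 3 calls was left without T1 drought 3 or without T1 watered 3, and 1 was left without T1 drought 1 or T1 watered 2. In vein at T1 and in both tissues at T2 against watered plants, 0 of the 4 sums were called. At an unadjusted p under 0.05 there were 1 (lower) in vein at T1, 2 (higher) in vein at T2 and 1 (higher) in intervein at T2. Of the 19431 single rows, 1237, 2255 and 1986 passed in those directions.

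At T2 the sums in intervein recovered libraries were 1391, 5109.9 and 2153 CPM for the chromosome 3 cluster, against 162, 866 and 1554 CPM in watered libraries. They were 772, 3269 and 1488 CPM for the chromosome 5 cluster, against 229, 469.5 and 369 CPM, and 333, 1379.8 and 659 CPM for both CP24 copies, against 141, 354 and 367 CPM. Of these 3, the chromosome 5 sum alone did not overlap. All 4 sums passed when the intervein drought response at T1 was taken from the recovery response at T2 (edgeR), at log2 differences of 6.21, 5.96, 5.31 and, for the subunit pair, 3.57. Of all single rows, 6.01% were called higher in that comparison. Without intervein T1 watered 3 both the CP24 sum and the subunit pair lost the call. The subunit pair also lost it without intervein T1 drought 1 or 3, T1 watered 2, any one T2 watered or T2 recovered 2 or 3.

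Ratios within a library do not depend on how libraries are scaled, and some of them differed between groups. Antenna counts per subunit count (not corrected for length) were 0.198, 0.655 and 0.695 in T1 drought, against 0.787, 0.818 and 1.35 in T1 watered intervein libraries, and 0.605, 0.945 and 0.954 in drought, against 1.24, 1.46 and 1.25 in watered vein libraries. Drought lay below T1 watered in both tissues without overlap, also without intervein T1 drought 1, the lowest. At T2 the ratio was 0.752, 0.815 and 0.632 in recovered, against 0.270, 0.529 and 0.603 in watered intervein libraries, again without overlap, and 0.952, 0.671 and 0.794 in recovered, against 0.731, 0.846 and 0.862 in watered vein libraries, which overlapped. T0 watered libraries had ratios of 1.29, 0.917 and 1.27 in vein and 1.24, 1.24 and 0.808 in intervein. The T1 drought range overlapped that of T0 in vein and not in intervein. It overlapped that of T2 watered libraries in both tissues, so ratios this low were not particular to drought. With 3 libraries against 3 no exact test of such a ratio can reach a p below 0.1, and none is given.

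CP24 10A made up a larger part of the counts of both CP24 copies in drought intervein libraries, 28.6% to 37.8% (mean 32.7% ± 4.69, SD, n = 3), than in watered ones, 7.33% to 20.1% (mean 14.7% ± 6.60, SD, n = 3), with no overlap. In vein the drought share of 10A was 17.2% to 28.5% (mean 21.8% ± 5.89, SD, n = 3), against 12.1% to 24.4% (mean 17.5% ± 6.28, SD, n = 3) in watered libraries, and these overlapped. At T2 it was 6.37% to 15.7% (mean 11.2% ± 4.66, SD, n = 3) in recovered, against 22.6% to 63.3% (mean 40.7% ± 20.7, SD, n = 3) in watered intervein libraries, and 5.35% to 11.6% (mean 9.27% ± 3.41, SD, n = 3) in recovered, against 21.9% to 34.1% (mean 26.4% ± 6.71, SD, n = 3) in watered vein libraries. Recovered libraries thus held a smaller share of 10A than T2 watered ones in both tissues, with no overlap. At T0 the share was 3.70% to 22.9% in watered vein and 12.4% to 24.2% in watered intervein libraries. In each tissue the T0 range overlapped that of recovered and that of T2 watered libraries.

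The share within the other pairs varied as well. Solyc03g005770 held 22.4% to 34% (mean 26.5% ± 6.58, SD, n = 3) of the counts of Solyc03g005760 and Solyc03g005770 in drought intervein libraries, against 41.4% to 53.9% (mean 46.3% ± 6.68, SD, n = 3) in watered ones, without overlap, while in vein at T1 the shares overlapped, with 28.7% to 43.8% in drought, against 37.6% to 43.7% in watered libraries. At T2 it held 47.4% to 50.3% in recovered, against 33.7% to 44.2% in watered vein libraries, without overlap, and 45.9% to 51.7% in recovered, against 34.4% to 49.5% in watered intervein libraries, with overlap.

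Solyc05g056050 held 9.96% to 23.1% (mean 17.5% ± 6.78, SD, n = 3) of the counts of Solyc05g056050 and Solyc05g056070 in drought, against 22.5% to 37.3% (mean 30.8% ± 7.56, SD, n = 3) in watered intervein libraries, and 15.3% to 32.1% in drought, against 22.9% to 24.2% in watered vein libraries, both with overlap. At T2 it held 21.6% to 32.4% (mean 26.7% ± 5.44, SD, n = 3) in recovered, against 9.96% to 18.3% (mean 14.4% ± 4.21, SD, n = 3) in watered vein libraries, without overlap, and 28.1% to 32.7% in recovered, against 15% to 30.8% in watered intervein libraries, with overlap. For the subunit pair, Solyc02g069450 held 29.6% to 49.3% (mean 37% ± 10.7, SD, n = 3) in drought, against 36.5% to 53% (mean 44.5% ± 8.29, SD, n = 3) in watered intervein libraries, with wide overlap, and 36% to 41.6% (mean 38.1% ± 3.03, SD, n = 3) in drought, against 42.5% to 63% (mean 49.8% ± 11.4, SD, n = 3) in watered vein libraries, without overlap. At T2 it held 48.8% to 59.1% in recovered, against 35.1% to 41.9% in watered vein libraries, without overlap, and 39.3% to 59.8% in recovered, against 28.5% to 54.3% in watered intervein libraries, with overlap. These shares were looked at after the counts were known and were not tested, and they are uncertain as far as copies share reads.

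**Figure D4:**
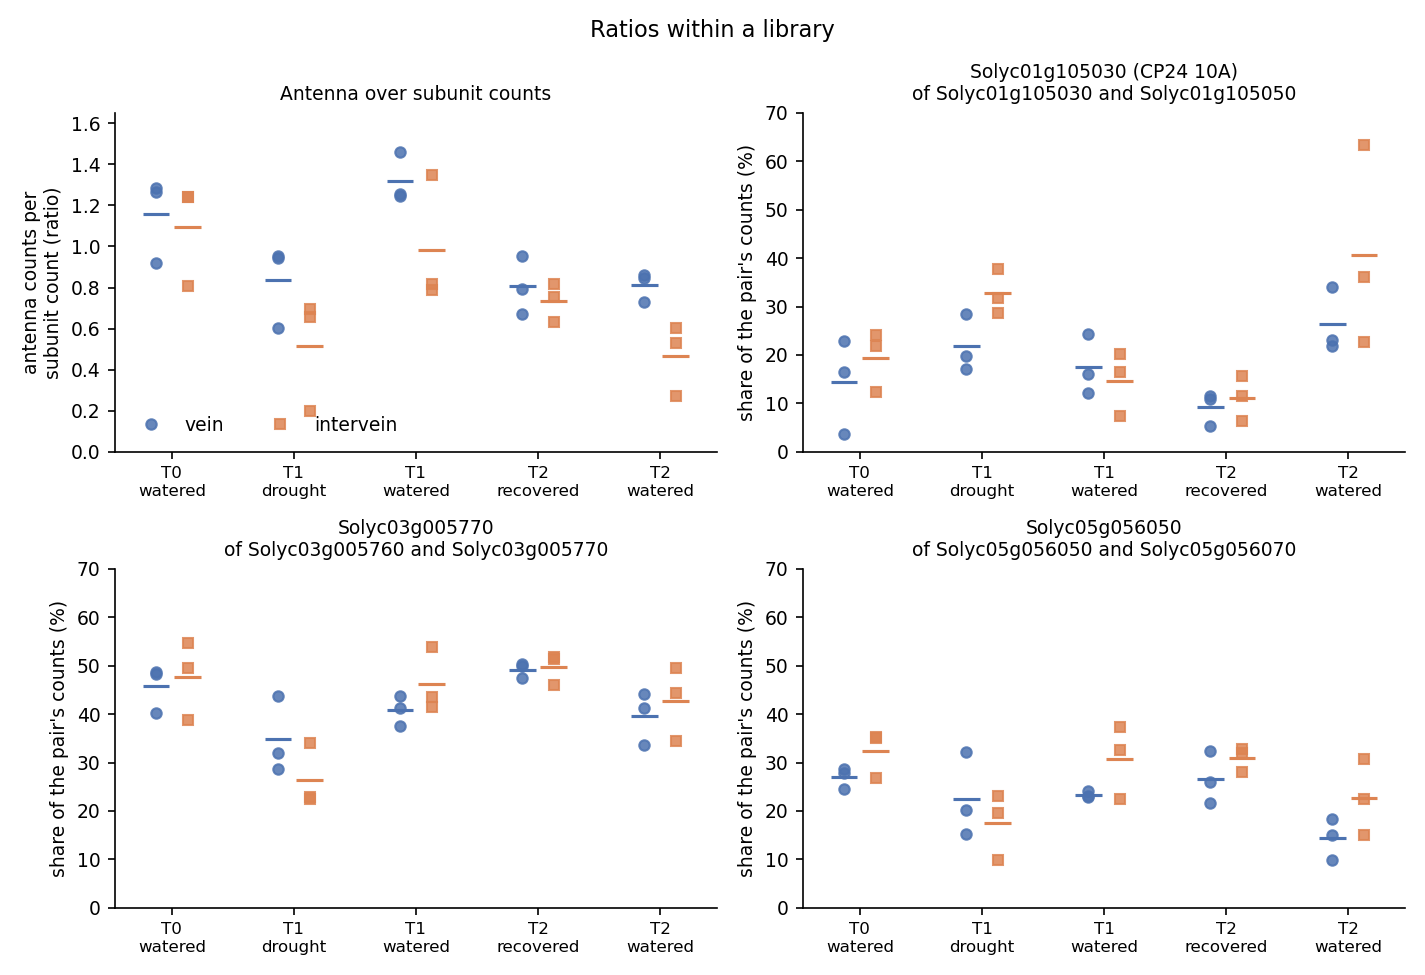
Ratios within each library by group, for vein (circles) and intervein (squares), with short lines as group means: antenna counts per subunit count, and the share (%) of Solyc01g105030 (CP24 10A), Solyc03g005770 and Solyc05g056050 in the counts of their pair. Intervein shares of CP24 10A run from 28.6% to 37.8% in T1 drought and from 7.33% to 20.1% in T1 watered libraries.

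Other genes of photosynthesis that the files pair with an annotated protein were few, 4 in all. Plastocyanin (Solyc04g082010) carries electrons to photosystem I, and Solyc02g063150, Solyc03g034220 and Solyc02g085950 encode small subunits of Rubisco, the carbon-fixing enzyme. In intervein tissue at T1, 1 of the 4 fell, beside 2.68% of all rows called lower. It was Solyc02g063150, with 345, 1542 and 907 CPM in drought, against 2286, 6047 and 28405 CPM in watered libraries (log2 fold change -3.72 ± 1.08 SE, adjusted p = 0.0467), and the other 3 had log2 fold changes of -2.33, -2.33 and -2.88. In vein at T1, and in either tissue at T2 against watered plants, edgeR called 0 of the 4. At an unadjusted p under 0.05 there were 0 in vein at T1, 4 higher in vein at T2 (beside 2255 of the 19431 rows) and 0 in intervein at T2. All 4 were lower in vein than in intervein over the watered groups (edgeR), with log2 fold changes of -3.65 to -3.20, beside 13.8% of all rows called lower.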

How the data were processed

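Per the labels' protocols, stranded mRNA libraries were read as single reads of 75 nt, and the tools named in the submitters' processing notes are DESeq2 1.20.0, StringTie 1.3.3b, HISAT2 2.1.0 and FastQC 0.11.5. The deposited values, per the file headers, are raw counts per gene and library from a KBase gene count matrix, with no normalization. Which genome build and annotation were used, and how reads that fit several genes were handled, is not given in the sources used here. The authors' own test columns were not used.

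The members and lists were chosen with earlier results of these data known. Antenna and subunit classes follow the list, and protein names were given to identifiers only where the table pairs them with an annotated protein entry. None of the identifiers matched the RefSeq gene table used here, and no sequences are printed.

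All 30 libraries entered 1 edgeR 4.0.16 quasi-likelihood fit (R 4.3.3) with 1 coefficient per group, rows kept by filterByExpr (19431 rows), TMM scaling, 20 residual degrees of freedom, two-sided tests, and Benjamini-Hochberg adjustment over all tested rows. Standard errors are the log2 fold change divided by the square root of F. CPM values use TMM-scaled library sizes. The 11 planned comparisons and 2 added after seeing the counts were repeated on tandem sums, with total-count scaling, DESeq2 1.42.0 size factors and test, no filter, compared groups only, replicate blocks, and without single libraries. The edgeR fit was also run on simulated counts with planted changes and a fixed spread that was not estimated from these libraries. That run therefore does not bear on how the calls behave at the spread seen here. Values per library are given for the highest member by mean CPM of each class and cluster, for the cluster sums and for the members with the largest changes called in each comparison; further genes named with values, among them those with an annotated protein, were chosen after their values were seen. The p-values measure the spread between libraries labelled as replicates; no 2 libraries of a group agreed within sampling noise.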

Additional observations from a re-analysis of the deposited data

Results flagged for a closer look

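The recovery response at T2 and the drought response at T1 of intervein tissue differed, by a test of the difference itself, for 26 of the 34 tested members, all with a higher value at T2, beside 6.01% of all rows called higher. Solyc06g069730 passed at an adjusted p of 0.00414 and Solyc03g005775 at 0.042 (edgeR), and both have groups at or near 0 counts, so that no size is given. The summed clusters, 2 of which passed without intervein T1 watered 3, passed as well, with log2 differences of 5.31 for Solyc01g105030 and Solyc01g105050, 3.57 for Solyc02g069450 and Solyc02g069460, 6.21 for Solyc03g005760, Solyc03g005770 and Solyc03g005775, and 5.96 for Solyc05g056050, Solyc05g056060 and Solyc05g056070. The 2 responses are each relative to watered plants of their own time point, and the summed antenna level of those was 4635 ± 2025 CPM at T2, against 38099.8 ± 41339.7 CPM at T1 (SD, n = 3 each). The part of this shift in the difference was not tested.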

How the results depend on the processing

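Groups held 3 libraries, and how depth or group size bore on the calls was not tested. The median of the members kept its sign under all alternatives run in 12 of the 13 comparisons. The exception was the T2 response in vein minus intervein, whose median of 0.68 turned to -0.94 without the 2 T2 libraries whose tissue scores went against their labels, to -0.94 without those and vein T1 drought 2, and to -0.54 without vein T2 recovered 2. For single members and sums called by the main test, 1510 alternative values kept their side of the threshold, 252 lost it and 0 changed direction, and the cause was not tested. Calls gained under an alternative are not among these values. The alternatives share libraries, so the values are not independent. The losses were uneven between comparisons. In intervein at T1, Solyc08g013670 kept its call in 7 and lost it in 8 settings, and Solyc03g005770 kept it in 13 and lost it in 1. In intervein recovered against drought, Solyc06g069730 kept it in 4 and lost it in 11. For vein against intervein, PsbS kept it in all 28.

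Members called by DESeq2 numbered 1 in vein at T1, 26 in intervein at T1, 18 and 5 in vein and intervein at T2 recovered against watered, 15 and 13 at T2 recovered against T1 drought, 1 for the T1 response in vein minus intervein, 25 in intervein watered T2 against T0, and 16 for the T2 minus the T1 response in vein. The shares of all rows called by DESeq2 are not given, so these counts cannot be set against the edgeR shares. Fitting only the compared groups left 0 called in intervein at T1 (12 with all libraries in the fit), 0 in intervein recovered against drought (2 with all), 9 for the T2 minus the T1 response in intervein (26 with all), and gave 6 for it in vein (0 with all). Intervein recovered against drought dropped to 1 each with total counts, without the filter, without the 2 T2 libraries out of place and with tandem clusters summed, and was 3, with Solyc07g063600 added, without those 2 and vein T1 drought 2.

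Leaving out single libraries gave 1 to 19 called in intervein at T1, 0 to 3 tandem sums there, 0 to 1 in vein recovered against watered, 0 to 2 in vein recovered against drought, 0 to 0 in intervein recovered against drought, 25 to 31 for vein against intervein, 0 to 1 in intervein watered T2 against T0, and 0 to 2 in vein and 11 to 29 in intervein for the T2 minus the T1 response, where 2 to 4 tandem sums passed. The median of the T2 response in vein minus intervein ranged from -0.54 to 1.10. Replicate numbers were not taken to pair the libraries, since the labels do not say that a number marks a plant. Both tissues were taken from the plants of a treatment, so vein and intervein libraries can share plants, which the correlations given here cannot exclude. In none of the 13 pairs of groups checked did the correlations of same-numbered deviations all exceed 0.1. Of these pairs, 5 were vein with intervein, and the others joined different treatments or time points. They were -0.241 to 0.362, and all 3 were above 0 between vein and intervein in T1 watered and in T2 watered plants. With the replicate number as a block, 13 members were called in intervein at T1, 3 tandem sums there, 31 for vein against intervein (22 with the number taken as a plant shared by both tissues), 2 in intervein recovered against drought (Solyc03g005770 and Solyc07g063600, so that Solyc06g069730 lost its call) and 24 for the T2 minus the T1 response in intervein.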

Other observations

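How alike the members were was described over the 30 libraries, without a test, since all members of a library share its depth and tissue. Spearman's rho of a member's CPM with the summed CPM of the other members had a median of 0.920 over the 34 tested members and exceeded 0.9 in 20 of them, 12 of 15 subunit and 8 of 19 antenna genes. The antenna genes ranged from 0.458 to 0.960 and the subunit genes from 0.802 to 0.968. The members least like the rest were Solyc05g056060 (0.458), Solyc03g005775 (0.483) and Solyc08g067320 (0.486), then CP24 10A (Solyc01g105030, 0.733). Solyc05g056060 had 0 to 50 counts a library and Solyc03g005775 0 to 241, with 0 in many libraries. Their values, and with them the low end of the antenna range, rest on few counts. PsbS (Solyc06g060340) was the subunit gene with the lowest value, 0.802.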
